A study of Mus musculus with 24 samples.

Results

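The 10 endothelial transcription factors Erg, Fli1, Ets1, Sox7, Sox17, Sox18, Tal1, Gata2, Nr2f2 and Mecom were followed through 24 bulk RNA-seq libraries of mouse Peyer's patch stroma. The members were given as a list of gene symbols, with no threshold on their values but with earlier results of these data known, and all 10 were found by mouse Entrez identifier among the 36528 gene models of each count table. The sorted cells were endothelial cells of high endothelial venules (HEV), the vessels through which lymphocytes enter lymphoid tissue, and fibroblastic reticular cells (FRC), the fibroblasts that form its scaffold. Mice either had 10% (w/v) PEG in drinking water ad libitum for 3 days, a treatment meant to lower fluid flow, or were left unperturbed, here called control. The groups were 6 HEV PEG, 4 HEV control, 7 FRC PEG and 7 FRC control libraries, each from 1000 sorted cells of a mouse, and they are named by group and library number. No transgene, mutation or other agent is named in the labels, and they give no strain, age or mouse number, so HEV and FRC libraries were treated as independent samples. In such bulk samples, fewer cells of a type and less RNA per cell cannot be told apart.

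Erg, Fli1 and Ets1 belong to the ETS family, whose members bind a GGAA core and act at many endothelial genes. Sox7, Sox17 and Sox18 are the SoxF factors of vessel development, with overlapping roles in arterial, venous and lymphatic endothelium. Tal1 and Gata2 work with the adaptor Lmo2 in endothelial and blood precursors and also in mast cells and megakaryocytes, Nr2f2 (COUP-TFII) supports venous identity, and Mecom is a zinc finger factor of blood stem cells and endothelium.

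RefSeq promoter entries (GRCm38.p6) matched 5 of the 10 members: Erg, Tal1, Nr2f2, Gata2 and Mecom. The 250 bases before the most upstream listed start were searched on both strands. The letters were AGGAAG with its variant CGGAAG for ETS factors, AGATAA with its variant TGATAA for GATA factors, ACAATG with its variant ACAAAG for SOX factors, and CAGATG with its variant CAGGTG for the E-box, the site type bound by Tal1 dimers. No match in the members' windows overlapped another. Of 32851 RefSeq promoters searched alike, 39.2% held the ETS letters, 16.6% the GATA letters, 25.2% the SOX letters and 29.2% the E-box letters. The 3 windows shown are those with a match to the binding letters of the families described here, with the ETS or GATA letters in capitals. Tal1 (chr4:115056176-115056425, plus strand) held the reverse complement of AGATAA 205 to 200 bases before the start, Nr2f2 (chr7:70366747-70366996, minus strand) held AGGAAG 218 to 213 bases before it, and Mecom (chr3:30509760-30510009, minus strand) held TGATAA 31 to 26 bases before it and the reverse complement of CAGATG, left in lower case, at 57 to 52. The windows of Erg and Gata2 held none of these letters.
Tal1: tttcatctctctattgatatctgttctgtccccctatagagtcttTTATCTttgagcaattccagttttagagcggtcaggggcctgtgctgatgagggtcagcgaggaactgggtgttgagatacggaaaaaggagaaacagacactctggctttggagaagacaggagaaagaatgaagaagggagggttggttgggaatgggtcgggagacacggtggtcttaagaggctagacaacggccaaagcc
Nr2f2: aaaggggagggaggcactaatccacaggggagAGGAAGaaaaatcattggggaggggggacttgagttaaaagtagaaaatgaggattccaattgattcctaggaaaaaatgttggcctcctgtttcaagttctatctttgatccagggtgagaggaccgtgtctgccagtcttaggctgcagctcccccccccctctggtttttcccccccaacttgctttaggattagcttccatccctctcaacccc
Mecom: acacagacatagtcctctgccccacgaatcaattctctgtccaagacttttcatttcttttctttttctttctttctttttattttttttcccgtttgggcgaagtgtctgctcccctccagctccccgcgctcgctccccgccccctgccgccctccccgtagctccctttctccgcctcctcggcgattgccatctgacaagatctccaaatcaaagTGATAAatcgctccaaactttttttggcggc

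Reads in genes ranged from 3115003 (library 16) to 19948766 in HEV PEG, from 14392146 to 17160900 in HEV control, from 15823379 to 21710946 in FRC PEG and from 12416032 to 18052362 in FRC control. The labelled cell types matched their defining markers: the summed level of 11 pan-endothelial markers was 10086 to 11999 CPM (counts scaled to the library's reads in genes) in HEV PEG and 9230 to 12338 CPM in HEV control, against 89.2 to 252 CPM in FRC PEG and 81.5 to 328 CPM in FRC control. The sum of 9 fibroblast markers was 5.54 to 62.0 CPM in HEV PEG and 19.2 to 487.7 CPM in HEV control, with library 9 the highest, against 22621 to 35669 CPM over both FRC groups. Libraries 1 to 9 lay apart from libraries 10 to 24 on the first principal component in both cell types, which held 26.9% of the variance in HEV and 22.1% in FRC. HEV libraries 1 to 9 comprised 1 PEG and 2 control libraries, FRC libraries 1 to 9 comprised 3 of each, and the labels give no date or batch for this split.

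The first question was how the factors differ between HEV and FRC, within PEG-treated and within control mice. Of the 10 members, 5 passed the filter on low counts also within FRC libraries alone (Erg, Fli1, Nr2f2, Mecom and Ets1). Each of these was higher in HEV in both settings (edgeR quasi-likelihood test, Benjamini-Hochberg adjusted p under 0.05). That filter took FRC PEG and FRC control together. In FRC PEG, Erg had 66, 0, 15, 1, 1, 158 and 34 reads and Mecom 0, 12, 1, 0, 3, 12 and 30. Under PEG both therefore entered through HEV, and their calls there are a description. The genes called higher were 12.5% of 14991 tested under PEG and 10.4% of 15743 among controls (26.8% and 24.6% in either direction). Sox7, Sox17, Sox18, Tal1 and Gata2 passed the filter only through their HEV libraries, which fixes the direction of their difference, so their levels are given as a description and their calls support nothing. In CPM, every HEV library lay above every FRC library for 10 of 10 factors under PEG, where 7.78% of tested genes lay wholly higher in HEV. Among controls this held for 9 of 10, where 8.07% did. For Sox7, Sox17, Sox18, Tal1 and Gata2, and for Erg and Mecom under PEG, this too is a description. Ets1 was the factor whose control ranges overlapped.

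**Figure D1:**
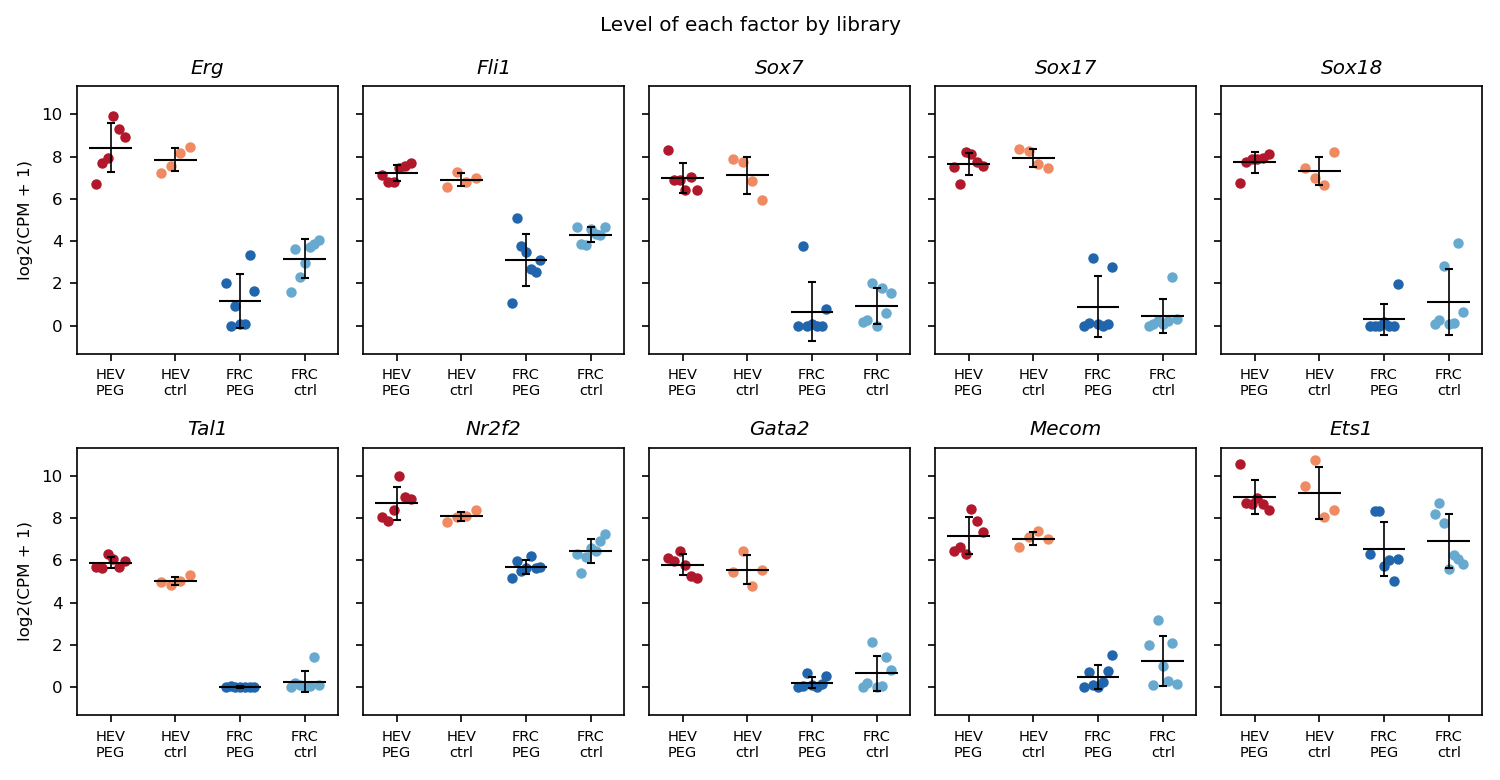
Level of each factor as log2(CPM + 1) in every library, by group; each point is a library, the line is the group mean and the bar its SD (6 HEV PEG, 4 HEV control, 7 FRC PEG and 7 FRC control libraries). Every HEV point lies above every FRC point of the same treatment for all factors except Ets1 among controls, and Tal1 is near 0 in nearly all FRC libraries.

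Among the ETS factors, Erg, a regulator of endothelial identity and junctions, had a lowest, median and highest level of 105, 369.9 and 956 CPM in HEV PEG, against 0, 0.910 and 9.33 CPM in FRC PEG. Its 4 HEV control libraries held 150.4, 187, 289 and 347 CPM, against 2.06, 11.6 and 15.8 CPM (lowest, median and highest) in FRC control. Neither pair of ranges overlapped, and HEV PEG library 16, the shallowest of the series, was the highest. The log2 fold change of HEV over FRC was 4.53 ± 0.41 (SE) among controls (edgeR, adjusted p 9.05e-06). Under PEG it was 7.99 ± 1.24, given as a description because Erg entered there through HEV. The Erg value under PEG rested on 275 FRC reads in all and moved to 8.75 without HEV PEG 7, 8.97 without FRC PEG 18, 7.29 without FRC PEG 10 and 7.31 without FRC PEG 11.

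Fli1, the closest relative of Erg, which is also used by blood cells, ran at 110.1, 156 and 204 CPM (lowest, median and highest) in HEV PEG, against 1.11, 7.52 and 32.8 CPM in FRC PEG. In HEV control its levels were 93.7, 155, 111 and 125 CPM, against 13.0, 19.3 and 24.4 CPM in FRC control. The groups did not overlap, but every FRC library held Fli1 reads, with FRC PEG 2 the highest and FRC PEG 1 the lowest. Its log2 fold change was 4.21 ± 0.62 under PEG (edgeR, adjusted p 0.000144) and 2.64 ± 0.27 among controls (edgeR, adjusted p 2.53e-05).

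Ets1, an ETS factor of endothelium and lymphocytes, had 336, 415 and 1508 CPM (lowest, median and highest) in HEV PEG, against 31.5, 65.9 and 326 CPM in FRC PEG. The HEV control libraries 8, 9, 17 and 24 held 735, 1735, 266 and 335 CPM, against 46.7, 75.2 and 412 CPM (lowest, median and highest) in FRC control. The 2 lower HEV controls lay within the FRC control range, whose upper end came from libraries numbered 4 to 6. The fold change on the log2 scale was 2.89 ± 0.31 under PEG (edgeR, adjusted p 8.68e-06) and 2.92 ± 0.50 among controls (edgeR, adjusted p 0.00115), the control value moving to 3.51 without HEV control 8 and 1.95 without HEV control 9. Within the 3 inferred sequencing pools the control difference in mean log2(CPM + 1) of Ets1 was 1.31, 4.85 and 2.29. These rest on 1, 1 and 2 HEV control libraries. The value of 4.85 sets HEV control 9 against FRC controls 12 and 13, which lie across the split of libraries 1 to 9 from 10 to 24. Cell type and that split cannot be told apart in it.

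Nr2f2, the venous nuclear receptor, had the smallest difference among controls. Its lowest, median and highest levels were 228, 409 and 1004 CPM in HEV PEG, against 34.5, 49.5 and 73.2 CPM in FRC PEG. The HEV control libraries held 227, 267, 270.4 and 329 CPM, against 41.3, 86.7 and 149 CPM (lowest, median and highest) in FRC control. Each HEV library was above each FRC library of its treatment, and HEV PEG 16 was again the highest. The log2 fold change was 3.05 ± 0.34 under PEG (edgeR, adjusted p 1.21e-05) and 1.53 ± 0.22 among controls (edgeR, adjusted p 0.000315). An annotated gene on the opposite strand, B130024G19Rik, overlaps Nr2f2, as Gm37587 does Sox17 and Mecomos does Mecom, and the counts carry no strand, so their reads cannot be told apart.

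The SoxF factors were abundant in HEV and nearly absent from most FRC libraries. Sox7 had 83.4, 119 and 316 CPM (lowest, median and highest) in HEV PEG and was at 0 in 4 of 7 FRC PEG libraries, with 237 of its 250 FRC PEG reads in library 2, which held 12.8 CPM. In HEV control Sox7 was at 233, 212, 115 and 61.6 CPM, against 0, 0.535 and 3.06 CPM (lowest, median and highest) in FRC control. These ranges were far apart, with FRC PEG 2 the FRC library closest to HEV. Sox17, known for arterial identity, reached 104, 201 and 295 CPM in HEV PEG, against 0, 0.0598 and 8.25 CPM in FRC PEG, where libraries 3 and 19 held 136 and 92 of 232 reads. Its HEV control levels were 324, 310.1, 203 and 175 CPM, against 0, 0.161 and 3.88 CPM in FRC control, where library 20 held 58 of 69 reads. So all HEV libraries were high for Sox17, and single FRC libraries supplied most of the FRC reads.

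Sox18, the SoxF factor tied to lymphatic development, had 108, 236 and 279.7 CPM (lowest, median and highest) in HEV PEG, against 0, 0 and 2.97 CPM in FRC PEG, where library 19 held 47 of 49 reads. The 4 HEV controls held 177, 125, 100.04 and 293 CPM, against 0.0560, 0.207 and 14.2 CPM (lowest, median and highest) in FRC control, where library 20 held 212 and library 6 held 75 of 303 reads. The groups were well separated, and FRC control 20 was the highest FRC library. That library also had the highest summed pan-endothelial markers of the FRC libraries (328 CPM) and the highest summed HEV markers (501 CPM), and their part in its Sox18 and Sox17 reads was not tested.

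Tal1, the basic helix-loop-helix factor, was the member least detected in FRC. It had 49.5, 56.1 and 78.9 CPM (lowest, median and highest) in HEV PEG, and 1 read in the 7 FRC PEG libraries together, against 4816 reads in the HEV PEG libraries. Per read in genes that is a ratio of 7310, with an exact 95% interval of 1311 to 288784 that covers counting error only. Its HEV control levels were 30.1, 27.2, 31.2 and 38.8 CPM, against 30 reads over the FRC controls, of which library 20 held 25. Tal1 was thus present in every HEV library and at 0 in 6 of 7 FRC PEG and 2 of 7 FRC control libraries. Gata2, a zinc finger factor that cooperates with it, ran at 35.2, 57.7 and 86.2 CPM in HEV PEG, against 0, 0.0598 and 0.607 CPM in FRC PEG. In HEV control Gata2 was at 42.4, 86.6, 26.9 and 45.0 CPM, against 0, 0.138 and 3.38 CPM in FRC control. No Gata2 range overlapped between the cell types.

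Mecom had 79.1, 131 and 345 CPM (lowest, median and highest) in HEV PEG, against 0, 0.187 and 1.90 CPM in FRC PEG. Its HEV control levels were 99.6, 135, 164 and 129 CPM, against 0.0689, 1.01 and 8.05 CPM in FRC control. The cell types did not overlap, and HEV PEG 16 was the highest library once more. For Sox7, Sox17, Sox18, Tal1, Gata2 and Mecom the fitted folds rest on few FRC reads, so the levels are given in place of folds. The adjusted p of Mecom among controls was 0.000863 (edgeR), and under PEG its difference is a description. Within pools, the difference in mean log2(CPM + 1) of the 10 factors was positive in each of 3 pools, under PEG and among controls. Its smallest values were 2.49 under PEG and 1.14 among controls, both for Nr2f2. For Sox7, Sox17, Sox18, Tal1 and Gata2, and for Erg and Mecom under PEG, the sign was fixed by the filter and is a description. The pools held 1, 3 and 2 HEV PEG and 1, 1 and 2 HEV control libraries.

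In HEV the factors could be ordered by length-scaled level (the deposited nRPKM, median over 10 libraries). Sox18 was first at 103, followed by Ets1 at 58.2, Erg at 49.99, Nr2f2 at 40.1, Sox17 at 31.4, Sox7 at 27.9, Fli1 at 18.3, Mecom at 13.6, Gata2 at 8.24 and Tal1 at 6.93 nRPKM. Each neighbouring pair overlapped in range, so adjacent places are not separated. The order also differed between the groups: in HEV PEG it began with Sox18 (112 nRPKM), Erg (67.7) and Ets1 (58.2), and in HEV control with Ets1 (77.3), Sox18 (72.7) and Erg (44.8), with Nr2f2 in place 6 at 36.2 nRPKM. In FRC, Ets1 (9.73 nRPKM, median over 14 libraries) and Nr2f2 (8.88) led, Fli1 followed at 1.87 without overlapping Nr2f2, Erg was at 0.65, and the other 6 had medians from 0 to 0.0443 nRPKM.

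The FRC share of the HEV level was larger for Nr2f2, Ets1 and Fli1 than for any of 11 pan-endothelial markers, though some other endothelial genes had shares of like size. Mean FRC PEG CPM was 22.5% of mean HEV PEG CPM for Ets1, 11.05% for Nr2f2, 6.94% for Fli1 and 0.505% for Erg, against a median of 0.319% and a highest value of 4.41% (Plvap) over 11 pan-endothelial markers. Among controls the share was 21.6% for Ets1, 33.7% for Nr2f2, 15.9% for Fli1 and 3.87% for Erg, against a marker median of 0.788% and a highest value of 4.21% (Tek). Taken library by library, Nr2f2 exceeded every marker in 14 of 14 FRC libraries, with shares from 8.82% to 38.2%. Ets1 did so in 12 of 14 and Fli1 in 10 of 14, but Erg in 1 of 14. Outside the pan-endothelial list, endoglin Eng had 19.0% under PEG and 14.8% among controls, Ecscr 10.6% and 13.0%, and the HEV marker Enpp2 17.0% and 15.8%, and the low-level HEV marker Chst4 had 46.3% under PEG. These shares are a description without a test. Ets1 and Fli1 are also expressed by leukocytes, whose 14 markers summed to 50.1 to 194 CPM in HEV PEG and 96.8 to 265 CPM in HEV control, against 66.0 to 252 CPM in FRC PEG and 9.72 to 125 CPM in FRC control. Of the 14, only Cd3e and Cd3g were at 0 in all FRC PEG libraries, and the other leukocyte markers had reads there. Of 10 leukocyte markers tested, 2 were higher in HEV under PEG and 1 among controls, with 0 lower (list medians 1.30 and 2.01). Of all tested genes, 12.5% and 10.4% were called higher. Not all of these markers passed the filter within FRC libraries alone, so the counts are a description. The part of leukocytes in the HEV and FRC levels was not tested.

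**Figure D2:**
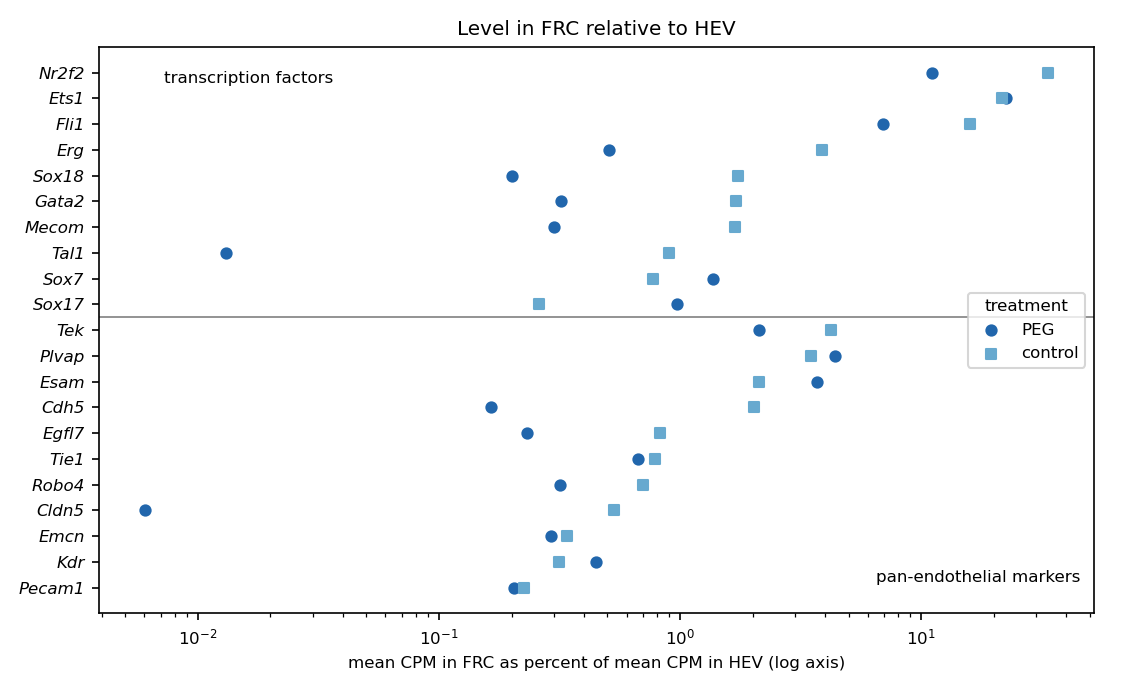
Mean CPM in FRC as a percentage of mean CPM in HEV on a log axis, for each factor (upper rows) and each of 11 pan-endothelial markers (lower rows), under PEG (circles) and among controls (squares). Nr2f2, Ets1 and Fli1 lie to the right of all markers in both settings, while the other factors lie within the marker range.

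Tal1 and Gata2 are also mast cell factors. Of 8 mast cell markers only Kit and Hdc passed the filter between the cell types, and both were higher in HEV. Within FRC libraries alone 0 of the 8 passed it, so the direction was fixed and this is a description. Kit had 75.4 ± 45.5 CPM in HEV PEG (SD, n = 6) against 1.04 ± 1.87 CPM in FRC PEG (SD, n = 7), and Hdc had 101 ± 29.4 CPM against 0.828 ± 2.09 CPM. The 8 markers summed to 129 to 253 CPM in HEV PEG and 115 to 222 CPM in HEV control, against 0.0607 to 13.1 CPM in FRC PEG and 0.235 to 6.04 CPM in FRC control. In HEV PEG, Kit and Hdc made up most of that sum. Cpa3, Fcer1a, Tpsb2 and Mcpt4 were at 0 in all HEV PEG libraries, and Fcer1a, Ms4a2, Tpsb2 and Cma1 in all HEV controls. Platelet markers, of which 5 were listed, summed to 6.18 to 34.1 CPM in HEV PEG and 10.8 to 28.8 CPM in HEV control, against 9.40 to 28.4 CPM in FRC PEG and 9.18 to 60.6 CPM in FRC control. None of the 4 platelet markers tested passed in either setting.

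Relatives of the factors were read from lists, described by counts beside the median of all genes tested, which was a log2 fold change of -0.08 under PEG and -0.16 among controls. Like the members, some listed genes passed the filter only through the cell type in which they are high, so the counts are a description. The directions, fold changes and p of such genes are a description too. Of the other ETS factors, 6 were higher in HEV and 2 lower of 18 tested under PEG, and 5 were higher and 1 lower of 16 among controls, with list medians of 0.57 and 0.77 on the log2 scale. Elk3 (log2 fold change 3.33 ± 0.36 among controls), Elf1 (1.46 ± 0.27) and Elf2 (1.01 ± 0.22) were higher and Etv1 (-5.09 ± 1.27) was lower. Etv1 did not pass the filter within HEV libraries alone, so its value is a description. SOX factors outside the SoxF group ran the other way, with 0 higher and 4 lower of 8 tested under PEG and of 9 among controls (list medians -3.25 and -3.27). Sox5, Sox6 and Sox11, known from cartilage and neural development, had 0.0636, 0.0291 and 0.209 CPM in HEV control against 44.1, 56.6 and 12.6 CPM in FRC control (group means, n = 4 and 7).

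Of the GATA and Tal1 relatives and partners, 6 were higher and 1 lower of 11 tested under PEG, and 3 were higher and 1 lower of 11 among controls (list medians 1.20 and 0.19). The Tal1 partner Lmo2 averaged 46.6 ± 24.2 CPM in HEV PEG and 2.96 ± 4.84 CPM in FRC PEG, and 63.0 ± 19.1 CPM in HEV control and 0.695 ± 1.08 CPM in FRC control (SD, n = 6, 7, 4 and 7). The Tal1 paralog Lyl1 averaged 28.9 ± 20.7 CPM in HEV control and 1.31 ± 3.12 CPM in FRC control, the corepressor Cbfa2t3 was higher (log2 fold change 1.55 ± 0.35 among controls), and Runx1, a blood factor, was lower (-3.87 ± 0.41). The COUP relative Nr2f1 lay opposite to Nr2f2, at 1.03 ± 1.32 CPM in HEV PEG against 5.70 ± 2.65 CPM in FRC PEG. Among controls it was at 0.0146 CPM in HEV against 6.71 ± 4.38 CPM in FRC. Nr2f1 did not pass the filter within HEV libraries alone, so its levels are a description. Prdm1, a relative of Mecom in the PRDM family, was higher in HEV by 3.68 ± 1.10 under PEG and 4.11 ± 1.17 among controls (log2).

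Among other endothelial transcription factors, 10 were higher and 1 lower of 17 tested under PEG, and 7 were higher and 1 lower of 15 among controls (list medians 2.69 and 1.74). Meox1, a homeobox factor, averaged 220 ± 15.3 CPM in HEV control and 12.0 ± 3.45 CPM in FRC control, the flow-responsive factor Klf2 346 ± 49.6 and 95.3 ± 9.88 CPM, and the hypoxia factor Epas1 934 ± 276 and 292 ± 132 CPM (SD, n = 4 and 7). The Notch target Heyl was lower in HEV (log2 fold change -7.56 ± 1.53 among controls), a description because Heyl did not pass the filter within HEV libraries alone. All 15 listed endothelial genes with known ETS sites were higher in HEV in both settings (list medians 9.31 under PEG and 7.07 among controls), including the VEGF receptor Kdr, endoglin Eng and the junction protein Esam. Of the 11 pan-endothelial markers, 9 are also on that list.

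Venous genes were higher in HEV for 7 of 8 tested in both settings, with 1 lower under PEG and 0 lower among controls (list medians 6.23 and 4.67). The apelin receptor Aplnr (log2 fold change 3.84 ± 0.37 among controls), Emcn (8.77 ± 1.21) and Vwf (5.49 ± 0.80) had the smallest p. Emcn did not pass the filter within FRC libraries alone, so its values are a description. Arterial genes were mixed, with 3 higher and 1 lower of 9 tested under PEG and 1 higher and 2 lower of 10 among controls (list medians 0.57 and -0.33). The Notch ligand Dll4 was higher (6.34 ± 0.73 among controls), and Unc5b (-4.95 ± 0.86) and Nrp1 (-0.77 ± 0.20) were lower. Of lymphatic genes, 3 were higher and 1 lower of 6 tested under PEG, and 2 were higher and 2 lower of 6 among controls (list medians 2.51 and 1.48), with Lyve1 and Flt4 higher and the podoplanin gene Pdpn, also an FRC marker, and Itga9 lower among controls.

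Several factors also varied between libraries 1 to 9 and 10 to 24 within a cell type, a split chosen after the values were seen and given without a test. Ets1 was at 735 to 1735 CPM in the 3 HEV libraries numbered 1 to 9 and 266 to 490.2 CPM in the 7 later ones. In FRC, Ets1 was at 77.2 to 412 CPM in 6 libraries numbered 1 to 9 and 31.5 to 75.2 CPM in 8 later ones. Neither pair of ranges overlapped. Sox7 likewise was at 212 to 316 CPM in the 3 earlier HEV libraries and 61.6 to 129 CPM in the later ones. Erg ran the opposite way in HEV, at 105 to 187 CPM in the earlier and 208 to 956 CPM in the later libraries. For the remaining 7 factors the 2 sets of HEV libraries overlapped.

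**Figure D3:**
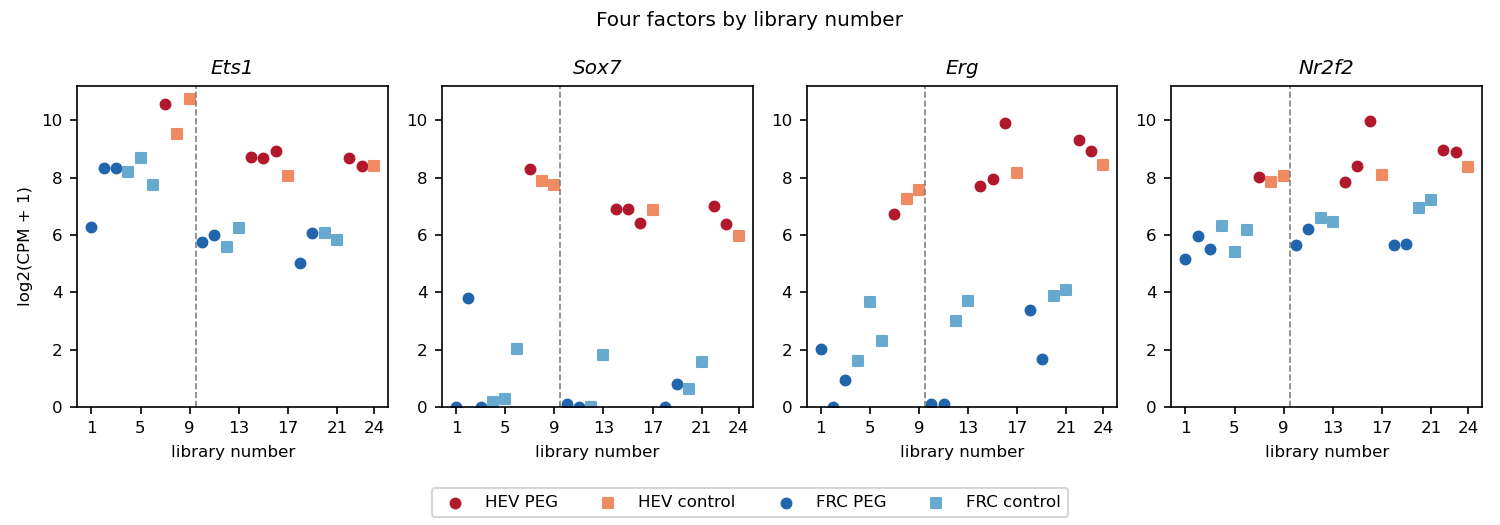
Ets1, Sox7, Erg and Nr2f2 as log2(CPM + 1) against library number, coloured by group (circles PEG, squares control); the dashed line lies between libraries 9 and 10. Ets1 is higher left of the line in both cell types, Sox7 higher and Erg lower there in HEV, and Nr2f2 in HEV PEG 16 stands at 1004 CPM.

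By the likeness rule, the genes most like the mean z-score of Erg, Sox17 and Sox18 over the 10 HEV libraries were Zkscan5 (Pearson r 0.93), Snx21 (0.90), Fam43a (0.89), Tubb2b (0.88), Gm33682 (0.86) and Abi3 (0.86), of 10858 genes compared. Among the other members Nr2f2 came closest (r 0.80, rank 40) and Sox7 lay farthest (r -0.60). The 3 factors behind the score did not move as a block, since r was 0.60 for Erg with Sox18, 0.05 for Erg with Sox17 and -0.13 for Sox17 with Sox18. These values are descriptive, and the libraries share the pools and the split by library number.

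PEG was then set against control within HEV, which asks whether PEG moved the factors in these vessels. No member passed, and neither did any other of the 14308 genes tested (0% called, edgeR, smallest adjusted p 0.640, 886 genes at an unadjusted p under 0.05, 116 genes by DESeq2, members 0). Tal1 had the smallest p of the members: the 6 HEV PEG libraries held 49.5 to 78.9 CPM, against 27.2 to 38.8 CPM in the 4 HEV controls. It was the member of 10 whose ranges did not overlap, where 0.538% of tested genes lay wholly higher under PEG and 0.398% wholly lower. Its log2 fold change was 0.84 ± 0.31 (edgeR, p 0.0213, adjusted p 0.794). Leaving out single libraries gave 0.66 to 0.94 (edgeR, adjusted p 0.661 to 0.949). Within the 3 pools the differences in mean log2(CPM + 1) were 0.73, 1.19 and 0.66. They came from 1 PEG and 1 control, 3 and 1, and 2 and 2 libraries. In the second pool HEV control 9 and the PEG libraries lie across the split by library number.

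None of the other members passed in HEV, and each had a larger unadjusted p than Tal1 (edgeR). Nr2f2 gave a log2 fold change of 0.65 ± 0.39 (edgeR, adjusted p 0.829) and Erg 0.65 ± 0.48 (edgeR, adjusted p 0.851), and without the shallow HEV PEG 16 they were 0.36 and 0.31. Fli1 (0.31 ± 0.25), Sox18 (0.27 ± 0.34) and Mecom (0.22 ± 0.41) were positive. Ets1 (-0.47 ± 0.41), Sox17 (-0.34 ± 0.31), Sox7 (-0.20 ± 0.31) and Gata2 (-0.01 ± 0.31) were negative. The median over the 10 members was 0.25 and over all tested genes 0.01. The 95% interval of a median tested gene reached 1.38 to either side in HEV and 0.953 in FRC, and larger changes of noisier genes can also go uncalled.

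In FRC, PEG against control could be tested for 5 of 10 members, since Sox7, Sox17, Sox18, Tal1 and Gata2 did not pass the filter on low counts. No member passed, nor any of 14595 genes (0% called, edgeR, smallest adjusted p 0.122, 989 genes at an unadjusted p under 0.05, 55 genes by DESeq2, members 0). Nr2f2 had the smallest p of them, with 34.5, 49.5 and 73.2 CPM (lowest, median and highest) in FRC PEG against 41.3, 86.7 and 149 CPM in FRC control. All 7 PEG libraries lay below the control median, but the ranges overlapped through FRC control 5 at 41.3 CPM. The log2 fold change was -0.74 ± 0.22 (edgeR, p 0.00477, adjusted p 0.579), and the differences in mean log2(CPM + 1) within pools ran from -1.41 to -0.43.

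Erg in FRC gave -2.84 ± 1.15 on the log2 scale (edgeR, p 0.0259, adjusted p 0.672), with 7 of 7 PEG libraries below the control median of 11.6 CPM and overlapping ranges. Mecom gave -2.54 ± 1.34, Fli1 -0.95 ± 0.58 and Ets1 -0.23 ± 0.28 (edgeR, adjusted p 0.782, 0.837 and 0.949). Thus all 5 testable members had negative estimates, beside a median of 0.01 over all tested genes. This was not particular to them. Positive estimates numbered 0 of 12 for other endothelial transcription factors (median -0.36) and 0 of 8 for arterial genes (-0.57). They numbered 2 of 9 for endothelial genes with ETS sites (-0.83) and 2 of 7 for pan-endothelial markers (-0.83). Of other ETS factors, 9 of 16 were positive (0.11). Ranges did not overlap for 0 of 10 members, where 0.0411% of tested genes lay wholly higher and 0.0343% wholly lower. The 11 pan-endothelial markers averaged 1.80 ± 0.61 log2(CPM + 1) in FRC PEG (SD, n = 7) and 2.32 ± 1.03 in FRC control (SD, n = 7; exact two-sided permutation p 0.29, adjusted 0.756 over 20 marker tests). Their part in the FRC values of Erg, Fli1 and Mecom was not tested.

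**Figure D4:**
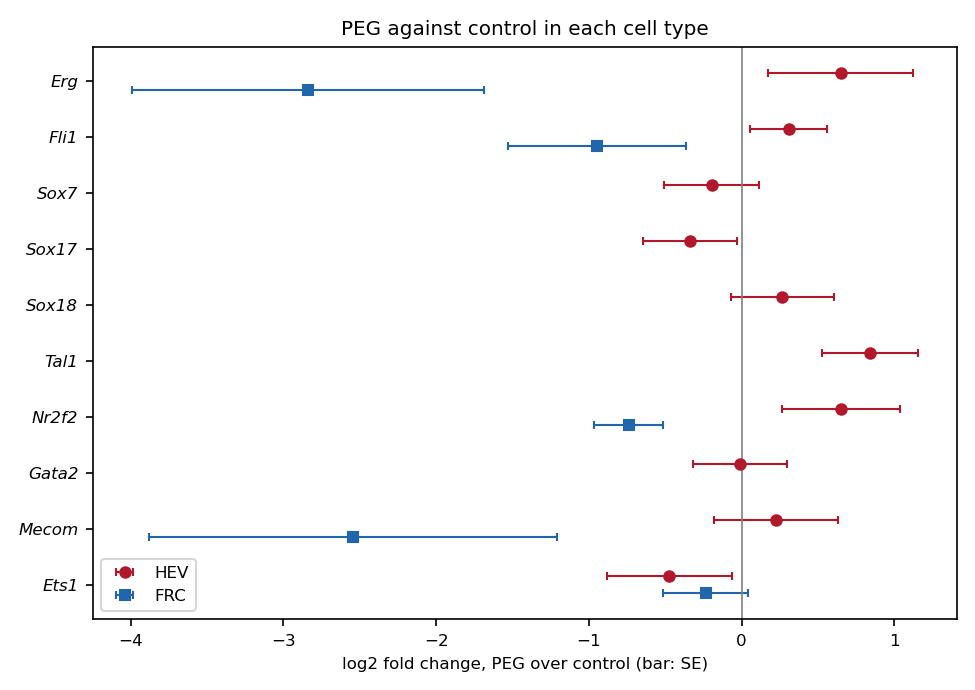
Log2 fold change of PEG over control with its SE (edgeR) for each factor in HEV (circles) and in FRC (squares); 5 factors have no FRC estimate because they did not pass the filter on low counts. Tal1, Nr2f2 and Erg lie at 0.65 to 0.84 in HEV, and the 5 FRC estimates lie between -2.84 and -0.23.

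Intestinal epithelium markers also differed widely between libraries. The 11 markers summed to 41.6 to 3567 CPM in HEV PEG and 14.0 to 564 CPM in HEV control, and to 83.4 to 4959 CPM in FRC PEG and 45.2 to 1976 CPM in FRC control. Their mean log2(CPM + 1) differed by 1.18 in HEV (exact permutation p 0.443) and by 1.75 in FRC (exact permutation p 0.136), PEG minus control. Of 10 tested, 10 had positive PEG estimates in HEV (median 1.56, log2) and 10 of 10 in FRC (1.78), with 0 called. The part of these markers in the PEG values of the factors was not tested. In HEV the pan-endothelial mean differed by -0.05 between PEG and control (exact permutation p 0.505).

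Whether PEG acted differently on the factors in HEV than in FRC was tested over all 24 libraries. No member passed, and 0.0110% of 18203 genes did (2 genes, edgeR). Nr2f2 had an estimate of 1.43 ± 0.40 on the log2 scale (edgeR, p 0.00143, adjusted p 0.209), positive in HEV and negative in FRC when each was fitted alone. Tal1 had 4.82 ± 1.27 (edgeR, p 0.000896, adjusted p 0.193), but its FRC side rests on 1 read under PEG and 30 reads among controls, and the estimate was 2.83 without FRC control 20. With DESeq2 Nr2f2 passed (adjusted p 0.0433), where 360 genes were called. Tal1 also passed with DESeq2, and without the filter on low counts, where edgeR called 38 genes. As these Tal1 calls rest on the same few FRC reads, they support nothing. Erg gave 3.30 ± 1.20 (edgeR, adjusted p 0.357). Estimates of the other 7 ran from -1.94 for Sox17 to 3.67 for Sox18, with adjusted p from 0.465 to 1 (edgeR).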

How the data were processed

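RNA of FRC and HEV cells was sequenced in 24 libraries. Alignment was by GSNAP to mm9, per the submitters' processing notes, and per the labels' protocols uniquely mapped reads were kept after removal of low-quality, ribosomal and adapter reads. Since all identifiers are mouse genes, a human build in the protocol text was disregarded. Versions and the gene annotation are not given in the sources used here. The deposited files hold, per the file headers, a raw read count and an RPKM value scaled by a size factor (nRPKM) per gene model. The nRPKM equalled the count over that factor, times a constant of the gene, in 8068 of 8068 genes checked (relative tolerance 1e-06), and that constant followed gene length (Spearman 0.84 over 18620 genes, across genes). It was used for levels between genes, and counts for everything else. RefSeq names matched 85.0% of identifiers, holding 97.3% of reads. Totals ranged from 3115003 to 21710946 reads per library, with a median of 16136689.

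Groups follow the labels. The same 8 index pairs recur in each run of 8 libraries, which were taken as 3 sequencing pools, an inference and not a label. Library 9, the only HEV control of the second pool, lay with libraries 7 and 8 on the first principal component in HEV. The pools thus do not match the split by library number. Counts were filtered with filterByExpr (minimum 10), TMM-normalised and fitted by edgeR 4.0.16 (R 4.3.3, limma 3.58.1) with a pool covariate. Robust two-sided quasi-likelihood tests were Benjamini-Hochberg adjusted over all genes tested. Comparisons used 13 libraries for HEV against FRC under PEG, 11 among controls, 10 for PEG in HEV, 14 for PEG in FRC and 24 for the difference of effects. Standard errors were derived from each fold change and its F statistic. P-values measure the spread between libraries, which in comparisons across cell types may share a mouse. Marker levels are means of log2(CPM + 1) with exact permutation tests over the library labels. Reads carry no molecular identifiers, so counting intervals cover counting error only. The code was tested on simulated data. Of genes given a log2 change of 1, it recovered 6% for PEG in HEV, 17% in FRC and 2% for the difference of effects. For a log2 change of 2 these shares were 29%, 55% and 18%. Alternatives were DESeq2 size factors, the submitters' size factors, no filter, a minimum of 50, DESeq2 1.42.0 with its Wald test, no covariate, pool plus i5 index, libraries 10 to 24 alone, all 24 libraries in 1 model, pseudocounts of 0.1 and 10, and each library left out.

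The members and lists were chosen with earlier results of these data known. All members are named in every comparison. From each list, up to 3 genes per direction of smallest p are named among those that passed between HEV and FRC controls. Markers singled out for a level of 0 or the end of a range, and the split of libraries 1 to 9 from 10 to 24, were chosen after their values were seen. The likeness rule takes the 6 named genes of at least 5 CPM with the highest Pearson r to the mean z-score of log2(CPM + 1) of Erg, Sox17 and Sox18 in HEV.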

Additional observations from a re-analysis of the deposited data

Results flagged for a closer look

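In 8 of 40 groups of a factor, a library stood far from the others of its group by Dixon's criterion at the 95% level. Some flagged FRC groups lie near 0 CPM, where 1 library with reads is enough for a flag, so the count is a description. HEV PEG 7 accounted for 3 of the 8: it was the highest for Sox7 at 316 CPM and for Ets1 at 1508 CPM, and the lowest for Sox18 at 108 CPM. It is the only HEV PEG library numbered 1 to 9, and HEV controls 8 and 9 were also high for Sox7 and Ets1. In FRC PEG, library 2 was the highest for Sox7 at 12.8 CPM and for Tal1 at 0.0540 CPM, the second of which is 1 read. FRC PEG 19 was the highest for Sox18 at 2.97 CPM. FRC control 20 was the highest for Sox17 at 3.88 CPM and for Tal1 at 1.67 CPM, and it also had the highest summed pan-endothelial markers among FRC libraries, at 328 CPM.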

How the results depend on the processing

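Fli1, Nr2f2 and Ets1 were called higher in HEV with every library left out in turn, under PEG and among controls, and Erg among controls. Sox7, Sox17, Sox18, Tal1, Gata2 and Mecom, and Erg under PEG, rest on few FRC reads or entered through HEV libraries. Their calls therefore say nothing of stability. Among controls the other 9 settings each called Erg, Fli1, Nr2f2 and Ets1, where 2276 to 5332 genes were called in all. Under PEG 8 settings each called Fli1, Nr2f2 and Ets1, where 3531 to 5077 genes were. Sox18 was not called among controls in libraries 10 to 24 alone (log2 4.87, edgeR adjusted p 0.0556). DESeq2 gave no adjusted p for Sox7 and Sox17 under PEG. The genes called between HEV and FRC controls numbered 2276 in libraries 10 to 24 alone, against 3869. For PEG in HEV, 141 genes passed without the filter, 116 by DESeq2 and 18 with all 24 libraries in 1 model, against 0. For PEG in FRC, 177 passed without the filter and 55 by DESeq2, against 0. For the difference of effects, 38 passed without the filter, 360 by DESeq2, 5 without covariate, 0 with pool plus i5 index and 0 in libraries 10 to 24 alone, against 2, and single libraries left out gave 1 to 16: 16 without HEV control 8, 9 without HEV control 17, 6 without HEV control 24, 5 without HEV PEG 7 or 22, and 1 without HEV control 9, FRC PEG 2 or 11, or FRC control 6, 20 or 21. Members called there were Tal1 without the filter, and Tal1 and Nr2f2 by DESeq2, against 0, and the Tal1 calls rest on few FRC reads. The causes were not tested.

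Small PEG estimates changed sign (log2). In HEV, with pool plus i5 index Sox7 was 0.54, Sox18 -0.47 and Ets1 0.25, and in libraries 10 to 24 alone Sox7 was 0.20, Sox17 0.025 and Ets1 0.25. Gata2 in HEV was 0.010 with DESeq2 size factors, 0.011 with the submitters' size factors and with DESeq2, 0.0057 at a minimum of 50, 0.15 without covariate and 0.23 with all libraries in 1 model. Leaving out single libraries gave -0.39 to 0.27 for Sox7, -0.0041 to 0.58 for Sox18, -0.20 to 0.19 for Gata2, -0.097 to 0.35 for Mecom and -0.84 to 0.51 for Ets1, the last positive without HEV control 9. For the difference of effects, Sox7 was 0.025 with either set of size factors, 0.00067 at a minimum of 50 and 3.12 in libraries 10 to 24 alone, and -0.54 to 2.90 with libraries left out. Sox17 was 1.59 in libraries 10 to 24 alone, and Ets1 was 0.42 there, 0.29 with pool plus i5 index and -0.68 to 0.80 with libraries left out.

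Marker levels of PEG minus control near 0 also changed sign. At a pseudocount of 0.1 fibroblast markers in FRC were 0.063 and platelet markers in HEV -0.062, and at 10 leukocyte markers in HEV were -0.048 and mast cell markers in FRC 0.010. Leaving out libraries gave -0.054 to 0.014 for fibroblast and -0.072 to 0.036 for mast cell markers in FRC, and in HEV -0.19 to 0.18 for leukocyte, -0.050 to 0.32 for lymphatic, -0.20 to 0.073 for HEV and -0.13 to 0.031 for mast cell markers. Pool plus i5 index could not be fitted between HEV PEG and FRC PEG, whose i5 indices are wholly separate. No paired analysis was possible because each library carries its own number and no number is shared between groups. Factors with few FRC reads limit what depth can show in FRC.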
